A study of Caenorhabditis elegans with 4 samples.

Results

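The strain VZ1 was set against the strain N2 after arsenite. The members are all 73 entries of the authors' deposited table for this pair of libraries, out of 393 entries in the 4 tables of the study. They carry 78 gene names, since 5 entries span several genes, 1 entry has no name and Y47D7A.15 has 2 entries. VZ1 is a Caenorhabditis elegans strain known for a deletion in trx-1, and N2 is the laboratory wild type. VZ1 under arsenite means whole young adults of the mutant kept for 5 h with 10 mM NaAs, which is sodium arsenite and causes oxidative stress. N2 under arsenite means wild-type animals treated alike. VZ1 and N2 animals left without stress on the bacterial food OP50 were used only for comparison. All 4 groups grew on OP50 to young adulthood, and each has 1 RNA-seq library made from total RNA. No value below has a replicate check, and the authors' calls compare 2 libraries and not 2 strains in general.

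Thioredoxins are small proteins that reduce disulfide bonds, and TRX-1 is a thioredoxin of a pair of sensory neurons, the ASJ cells. The study's title links it to SKN-1, the Nrf-family transcription factor that switches on detoxification genes under oxidative stress. The cuticle, the collagen coat of the worm, is made by the epidermis and is rebuilt at each molt, when collagen genes are switched on in waves. Adult hermaphrodites also make yolk in the intestine and gametes in the gonad.

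Levels are FPKM, fragments scaled to exon length and to the fragments mapped, as the authors computed them for this pair of libraries. Lower and higher are said of entries that the authors list, and the fold is the ratio of the FPKM values with no pseudocount. The table is made of calls, so its values describe selected genes and no gene outside it has a level here. Of 14358 genes tested by the authors, 0.508% were listed, 0.488% as lower in VZ1 and 0.0209% as higher. The sizes of the gene lists used below count annotated genes, and how many of each list were tested is not known. Numbers of genes given at the listed share are therefore approximate. Of the 73 entries, 70 were lower in VZ1 and 3 were higher, namely col-3, clec-9 and lips-11. Among the 63 lower entries with a value above 0 in both libraries the median log2 ratio of VZ1 to N2 was −2.85, with quartiles of −3.68 and −2.33. The smallest fall was 3.18-fold and the largest 62.8-fold. In stressed VZ1 14 entries were above 100 FPKM and none above 1000 FPKM, the highest being 527 FPKM, while in stressed N2 42 were above 100 FPKM and 12 above 1000 FPKM. Among the 73 entries, 54 have the smallest q of the authors' deposited table, 0.0133, and the largest q is 0.0492. Of the 54, 4 are at 0 in VZ1, with nas-21 among them at 0.663 FPKM in N2, so the smallest q is no mark of a high level. The read depth of the libraries is unknown, so no counting error can be given. In whole animals, fewer cells of a type and less RNA per cell cannot be told apart.

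Cuticle collagen genes were the main group. They encode the short triple-helical proteins that are cross-linked into the cuticle. The counts below are of a fixed list, which leaves out rol-1, thought to encode a collagen and given further below. Of 179 annotated collagen genes 24 (13.4%) were listed as lower in VZ1 under arsenite and 1 as higher, where 0.488% of all genes tested were listed as lower. The collagen genes listed as lower had a median log2 ratio of −2.86, against −2.85 for the 39 other lower entries with a value above 0 in both libraries, so the medians were alike. Their summed level was 3185 FPKM in stressed VZ1 and 17023 FPKM in stressed N2, a 5.34-fold difference. At the level of single genes, 1 of the 24 was above 500 FPKM in VZ1 and 11 were in N2.

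The deepest falls were in collagen genes that the unstressed strain table lists too. The gene col-88 (chromosome III, 41062 to 41970 in build ce10) stood at 3.95 FPKM in stressed VZ1 and 248 FPKM in stressed N2, a log2 ratio of −5.97. The gene col-140 (chromosome V, 5835877 to 5836794) had 3.18 FPKM in VZ1 and 155 FPKM in N2. The gene col-178 (chromosome X, 11199403 to 11200303) had 1.005 FPKM in VZ1 and 44.3 FPKM in N2. All 3 stood at or below 3.95 FPKM in VZ1. The gene col-139 had 4.33 FPKM in VZ1 and 154 FPKM in N2. The gene col-122 had 7.07 FPKM in VZ1 and 212 FPKM in N2, and col-181 had 8.77 FPKM in VZ1 and 245 FPKM in N2. The gene col-20 had 0.893 FPKM in VZ1 and 26.3 FPKM in N2, the lowest N2 level among the 24. Smaller falls in this set belonged to col-60 (log2 −4.16), col-184 (−4.11), col-157 (−3.12), col-133 (−2.87), col-77 (−2.85), col-162 (−2.64), col-161 (−2.51) and col-145 (−2.21). Across all 15 of these genes the levels ran between 0.893 and 146 FPKM in VZ1 and between 26.3 and 1055 FPKM in N2, with medians of 8.77 and 245 FPKM for VZ1 and N2.

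Under arsenite 9 further genes of the collagen list were listed that the unstressed strain table does not list, rol-1 not counted. In stressed N2 all 9 stood above the first 15 with the exception of col-77. The gene col-73 (chromosome II, 4872204 to 4873113) had 527 FPKM in stressed VZ1 and 2273 FPKM in stressed N2. The gene col-38 had 371 FPKM in VZ1 and 1857 FPKM in N2. The gene bli-6, known for mutants with a blistered cuticle, had 266 FPKM in VZ1 and 1374 FPKM in N2. All 3 had more FPKM in stressed VZ1 than any collagen gene of the first set had there. The gene dpy-4, whose mutants are short and stout, had 491 FPKM in VZ1 and 1564 FPKM in N2, the smallest fall of all entries (log2 −1.67). The locus of col-71 and Y49F6B.9 had 282 FPKM in VZ1 and 1459 FPKM in N2, and col-138 had 238 FPKM in VZ1 and 1497 FPKM in N2. The gene col-63 fell most within this set, with 86.8 FPKM in VZ1 and 688 FPKM in N2 (log2 −2.99). The remaining members were col-14, with 243 FPKM in VZ1 and 1032 FPKM in N2, and col-97, with 207 FPKM in VZ1 and 971 FPKM in N2. The median of the 9 was 266 FPKM in VZ1 and 1459 FPKM in N2, with a median log2 ratio of −2.32, against −4.16 for the 15 listed in both conditions. The 15 were called in both strain tables, so the sets were not selected alike. The 9 made up most of the summed collagen level, with 2713 of 3185 FPKM in VZ1 and 12714 of 17023 FPKM in N2. No level without stress is known for them, so whether their strain ratio differed between the conditions was not tested.

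**Figure D1:**
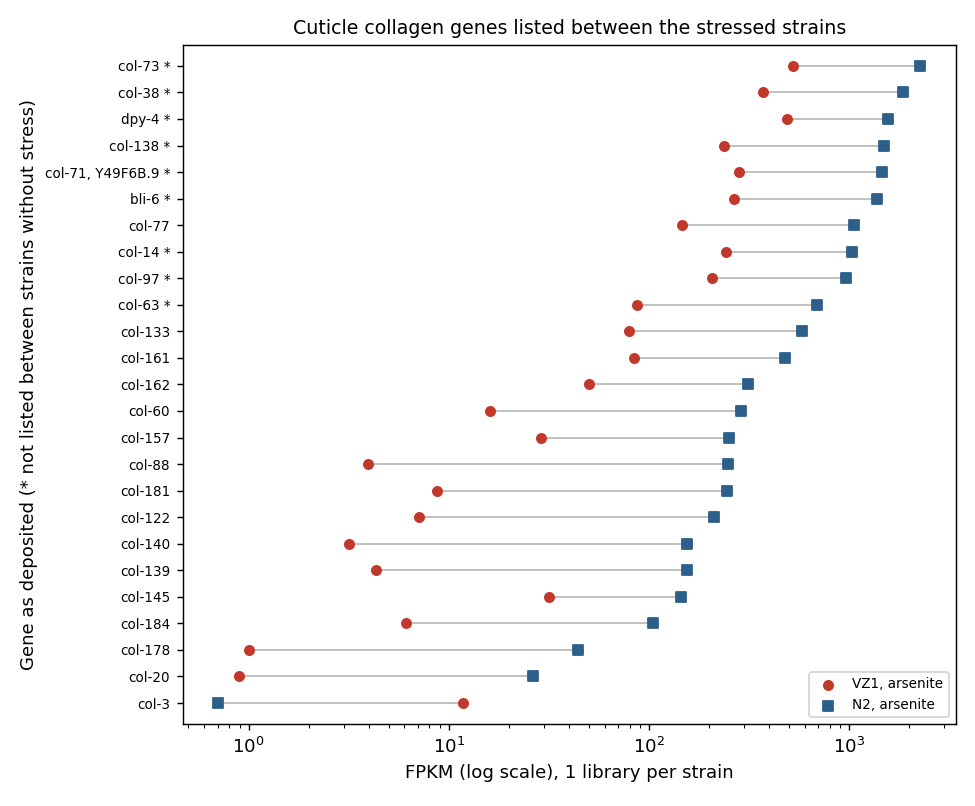
FPKM on a log scale (x axis) of each gene of the collagen list that is listed between the stressed strains (y axis). A circle marks the VZ1 library and a square the N2 library, with 1 library per strain, and rol-1 is not included. Genes with an asterisk, all at 688 FPKM or more in N2, are not listed between the unstressed strains; col-3 alone has its VZ1 value, 11.8 FPKM, above its N2 value.

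The listed collagen genes have a small gene structure. In the Ensembl annotation of assembly WBcel235 the 23 lower collagen genes at a single-gene entry have a median coding length of 891 nt, between 843 and 1143 nt, and 1 to 3 exons. The median over 19985 protein-coding genes is 987 nt and 5 exons. They lie on all 6 chromosomes, with 2 on I, 5 on II, 2 on III, 6 on IV, 6 on V and 3 on X, and col-20 and col-73 are 1.45 kb apart. At 4 of the entries, those of col-14, col-122, col-138 and dpy-4, the authors' locus is more than 2 times as wide as the annotated gene, up to 14.7 kb for dpy-4, so their FPKM may include reads of other genes. The entry of col-71 and Y49F6B.9, 10.9 kb wide, spans several genes and was not part of this check. Of these entries only col-122 is also listed between the unstressed strains, so this limit falls mainly on genes not listed there. Reads shared by near-identical collagen genes may have been split between them by the authors' assignment.

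The collagen gene col-3 (chromosome IV, 8824796 to 8825954) went the other way. It had 11.8 FPKM in stressed VZ1 and 0.704 FPKM in stressed N2, 16.8-fold higher in VZ1. Without stress it had 2.97 FPKM in VZ1 and 25.5 FPKM in N2, so VZ1 was the lower strain there. In the authors' stress table for N2 it had 0.700 FPKM with arsenite and 26.02 FPKM without, a log2 change of −5.22. The low level of stressed N2 thus appears in 2 tables, which rest on the same library, and the stress table for VZ1 does not list the gene. In the authors' deposited table its q under arsenite is 0.0228.

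Other epidermal and cuticle genes were listed singly, with falls smaller and larger than the collagen median. At the share of 0.508% listed among all genes tested, the lists of 88 hedgehog-related genes, 74 molting and cuticle enzyme genes and 39 other cuticle protein genes come to 0.447, 0.376 and 0.198 genes, so counts of 1 or 0 are near the background. The gene rol-1, known for mutants that roll as they move, is thought to encode a cuticle collagen too, but the collagen list missed it. It had 84.8 FPKM in stressed VZ1 and 768 FPKM in stressed N2 (log2 −3.18), and is not listed between the unstressed strains. The gene wrt-6, a hedgehog-related gene and 1 of the 88, had 26.8 FPKM in VZ1 and 121 FPKM in N2. The gene mup-4 encodes a transmembrane protein that anchors the epidermis to the cuticle over muscle. It had 24.1 FPKM in VZ1 and 82.02 FPKM in N2, a log2 ratio of −1.77. The gene F49E12.1, now named skpo-1 and encoding a peroxidase, had 0.570 FPKM in VZ1 and 8.90 FPKM in N2, a log2 ratio of −3.96. Of the molting and cuticle enzyme genes nas-21, an astacin metalloprotease gene, was listed, at 0 in VZ1 and 0.663 FPKM in N2, and the other cuticle protein genes had no member listed.

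Of 75 pharyngeal and prion-like genes 1 was listed, where the 0.508% listed among all genes comes to 0.381, a count near the background. It was abu-12, a member of a family first described in worms with a blocked unfolded protein response. It had 10.7 FPKM in stressed VZ1 and 53.2 FPKM in stressed N2. Under their present names 2 more entries belong to families of low-complexity proteins assigned to the pharyngeal cuticle. They were recognised after the values were seen, and their families were not counted, so no background share can be set beside them. The gene M02G9.2, now idpp-4, had 2.53 FPKM in VZ1 and 19.9 FPKM in N2. The gene F07H5.8, now appg-2, had 3.86 FPKM in VZ1 and 20.2 FPKM in N2. None of these 3 is listed between the unstressed strains.

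Among intestinal genes, the yolk protein gene vit-6 (chromosome IV, 8261154 to 8266348) was listed, 1 of 6 vitellogenin genes, where the 0.508% listed among all genes comes to 0.0305. It had 12.6 FPKM in stressed VZ1 and 52.3 FPKM in stressed N2, a log2 ratio of −2.05, among the smaller falls. Without stress it had 6.69 FPKM in VZ1 and 232 FPKM in N2, so the gap was wider there (log2 −5.11). Compared within strains, arsenite went with a higher level in VZ1 (log2 0.92 across the 2 strain tables) and a lower level in N2 (log2 −2.15). The authors' stress table for N2 gives the gene a log2 change of −2.19, and their table for VZ1 does not list it.

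The other genes higher in VZ1 were a lipase gene and a lectin gene. The lipase gene lips-11 (chromosome II, 1108847 to 1110998) had 17.1 FPKM in stressed VZ1 and 1.89 FPKM in stressed N2, a 9.05-fold difference. Without stress it had 20.7 FPKM in VZ1 and 2.10 FPKM in N2, so its level differed little between the conditions and its strain ratio was log2 3.18 with and 3.30 without arsenite. The C-type lectin gene clec-9 (chromosome V, 16705053 to 16706618) had 33.9 FPKM in stressed VZ1 and 2.14 FPKM in stressed N2, a 15.8-fold difference. It is not listed between the unstressed strains or in either stress table. C-type lectins are carbohydrate-binding proteins of which many respond to infection, and of 264 such genes 1 was higher and 1, clec-219, was lower, at 0 in VZ1 and 0.964 FPKM in N2. None of 134 other immune effector genes was listed. At the 0.508% listed among all genes the 2 lists come to 1.34 lectin genes and 0.681 other effector genes, so both counts are near the background.

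Of 126 sperm genes 1 was listed, where the 0.508% listed among all genes comes to 0.641, and of 44 oocyte and eggshell genes none was under its deposited name, where it comes to 0.224, so both counts are near the background. The sperm gene msp-152 encodes a major sperm protein, the cytoskeletal protein that moves nematode sperm. It had 23.6 FPKM in stressed VZ1 and 212 FPKM in stressed N2. Its locus (chromosome II, 4933013 to 4933396) ends 526 bp before that of gst-30, which the authors' stress table for N2 gives at 1238 FPKM with arsenite and 1.10 FPKM without. Major sperm protein genes are nearly identical in sequence, so the value of a single member is uncertain. T10E9.3, now named cpg-22 after chondroitin proteoglycans and so 1 of the 44 by its current name, had 14.02 FPKM in VZ1 and 83.8 FPKM in N2. C08F11.11, now named ule-4 for expression in the uterine lumen, had 86.95 FPKM in VZ1 and 720.5 FPKM in N2, and its level without stress was nearly the same in each strain, with 97.2 FPKM in VZ1 and 704.97 FPKM in N2.

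**Figure D2:**
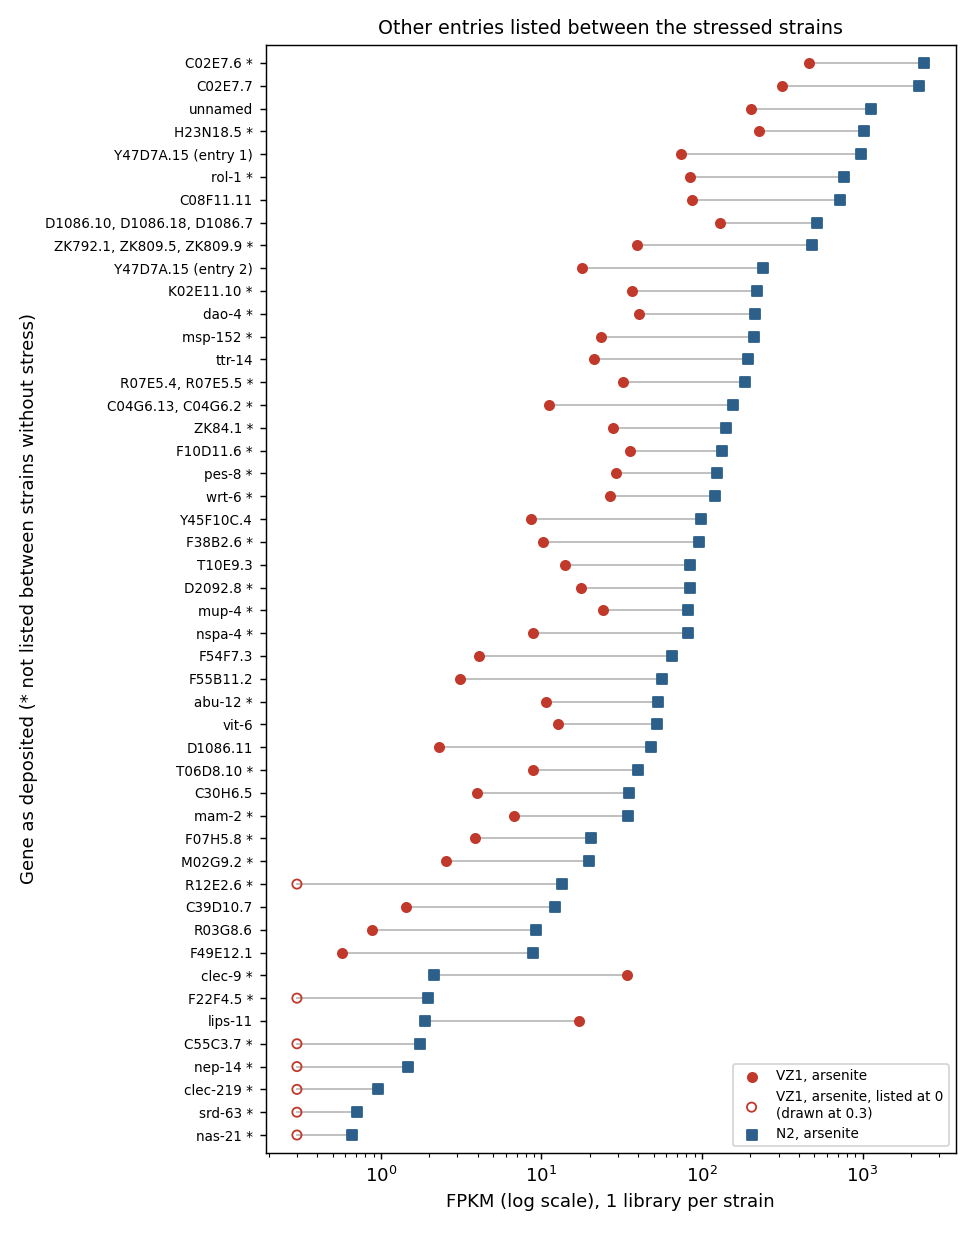
FPKM on a log scale (x axis) of the 48 entries outside the collagen list (y axis), with a filled circle for the VZ1 library, a square for the N2 library, an open circle drawn at 0.3 for the 7 genes listed at 0 in VZ1, and an asterisk for named entries not listed between the unstressed strains. The VZ1 value lies left of the N2 value in all entries but clec-9 and lips-11.

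Of the 73 entries, 30 in no list carry only sequence names as deposited, some of them with present names given above. The share of such names among all genes tested was not computed, so this count is not a result about them. The highest levels among the 30 were those of the short neighbours C02E7.6 and C02E7.7 on chromosome V, whose coding parts are 210 and 198 nt long. C02E7.6 had 464 FPKM in stressed VZ1 and 2419 FPKM in stressed N2, and C02E7.7, 0.685 kb away, had 314 FPKM in VZ1 and 2260.4 FPKM in N2. Another short gene, H23N18.5, 5.84 kb from C02E7.7, had 226 FPKM in VZ1 and 1025 FPKM in N2. All 3 were lower in VZ1, while their neighbour ugt-13, a detoxification gene 405 bp from H23N18.5, is not listed between the stressed strains and was higher with arsenite within each strain in the authors' stress tables (log2 2.74 in VZ1 and 3.52 in N2). FPKM of genes this short rests on few positions and is less certain.

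The largest falls outside the collagen genes were those of D1086.11 (2.30 FPKM in VZ1 and 47.98 FPKM in N2), F55B11.2 (3.13 FPKM in VZ1 and 56.3 FPKM in N2) and F54F7.3 (4.09 FPKM in VZ1 and 64.9 FPKM in N2). D1086.11 lies 6.05 kb from the merged entry of D1086.10, D1086.18 and D1086.7, which had 130 FPKM in VZ1 and 518 FPKM in N2. The merged entry of C04G6.13 and C04G6.2 had 11.1 FPKM in VZ1 and 156 FPKM in N2. Y47D7A.15 had 2 entries at the same coordinates, with 73.97 and 18.02 FPKM in VZ1 against 983 and 242 FPKM in N2. Their ratios were alike (log2 −3.73 and −3.74). With the ZK809.5 locus set aside, Y45F10C.4 (log2 −3.53), R03G8.6 (−3.39), F38B2.6 (−3.24) and the short peptide gene nspa-4 (−3.20) were next, followed by the transthyretin-related gene ttr-14 (−3.19), which had 21.3 FPKM in VZ1 and 194 FPKM in N2. The authors' loci of D1086.11, nspa-4 and ZK84.1 are more than 2 times as wide as the annotated genes. An entry with no name (chromosome X, 9233648 to 9234555) had 201 FPKM in VZ1 and 1135 FPKM in N2, and pes-8, 17.2 kb from it, had 29.1 FPKM in VZ1 and 124 FPKM in N2. The other named entries were K02E11.10, dao-4, the entry of R07E5.4 and R07E5.5, ZK84.1, F10D11.6, D2092.8, T06D8.10, C30H6.5, mam-2 and C39D10.7. They had between 1.43 FPKM (C39D10.7) and 40.5 FPKM (dao-4) in VZ1 and between 12.1 FPKM (C39D10.7) and 219 FPKM (K02E11.10) in N2, with log2 ratios between −3.14 (C30H6.5) and −1.90 (F10D11.6). In all, 9 pairs of entries, the 2 of Y47D7A.15 included, lay within 25 kb of each other.

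One locus combined a rise under arsenite in N2 with a low level in stressed VZ1. The entry of ZK792.1, ZK809.5 and ZK809.9 (chromosome IV, 11656328 to 11667862) had 39.3 FPKM in stressed VZ1 and 486 FPKM in stressed N2, a 12.4-fold difference. In the authors' stress table for N2 the locus, which ends 2 bp further on, had 474 FPKM with arsenite and 47.8 FPKM without, a log2 change of 3.31. The stressed VZ1 level was thus near that of unstressed N2. The stress table for VZ1 and the unstressed strain table do not list the locus, so its level in unstressed VZ1 is unknown. As 3 genes share the entry, the gene behind the difference cannot be named. It was the only entry that the stress table for N2 also gives as higher with arsenite. The other 4 entries found there, vit-6, col-178, col-20 and col-3, were lower with arsenite. That table lists 1.05% of the genes tested in it, 0.799% as higher and 0.25% as lower with arsenite. No entry was found in the stress table for VZ1, which lists 0.735% of its genes.

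In stressed VZ1 7 genes were listed at 0 and none was in stressed N2. R12E2.6 had 13.5 FPKM in N2, and its neighbour R12E2.14, 0.645 kb away, was lower in unstressed VZ1, with 464 FPKM in VZ1 and 2035 FPKM in N2. The other 6 were at or below 1.96 FPKM in N2, namely F22F4.5, C55C3.7, the pseudogene nep-14 (1.47 FPKM), clec-219, nas-21 and the chemoreceptor gene srd-63 (0.708 FPKM). None of the 7 is listed between the unstressed strains, and with levels this low a 0 may reflect few reads. Of 1692 annotated chemoreceptor genes srd-63 alone was listed, where the 0.508% listed among all genes comes to 8.60. How many of the 1692 were tested is not known.

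Entries listed with and without arsenite could be followed through all 4 libraries. The unstressed strain table shares a gene with 33 of the 73 entries (45.2%), which fall on 32 of its 63 entries (50.8%). That table lists 0.437% of the genes tested in it. The lower entries among the 33 had a median log2 ratio of −3.53 under arsenite. It was −2.37 for the 32 lower entries without such a partner that are above 0 in VZ1. The 7 entries at 0 in VZ1, all without a partner, have no ratio. Entries with a partner were called in both strain tables, so the groups were not selected alike. Leaving out Y47D7A.15, 31 entries could be set side by side, 26 of them at the same coordinates. These 31 were called in both strain tables, which selects for large ratios in each. Entries called in only 1 of those tables have no ratio in the other condition, so how alike the ratios are in general was not tested. Under arsenite 14 of the 31 had a strain ratio nearer to 0 than without stress, and 26 had log2 ratios that differed by less than 1 between the conditions. The median log2 ratio was −3.19 with and −3.32 without arsenite. The exceptions beyond 1 were col-3, vit-6, F54F7.3, F55B11.2 and F49E12.1. For F55B11.2 and F49E12.1 the gap was wider under arsenite (log2 −4.17 and −3.96) than without (−3.04 and −2.83), but the locus of F55B11.2 differs between the tables. For F54F7.3 it was narrower, at −3.99 with and −5.10 without arsenite. The tables of the 2 conditions share no library, but their FPKM values were scaled separately.

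**Figure D3:**
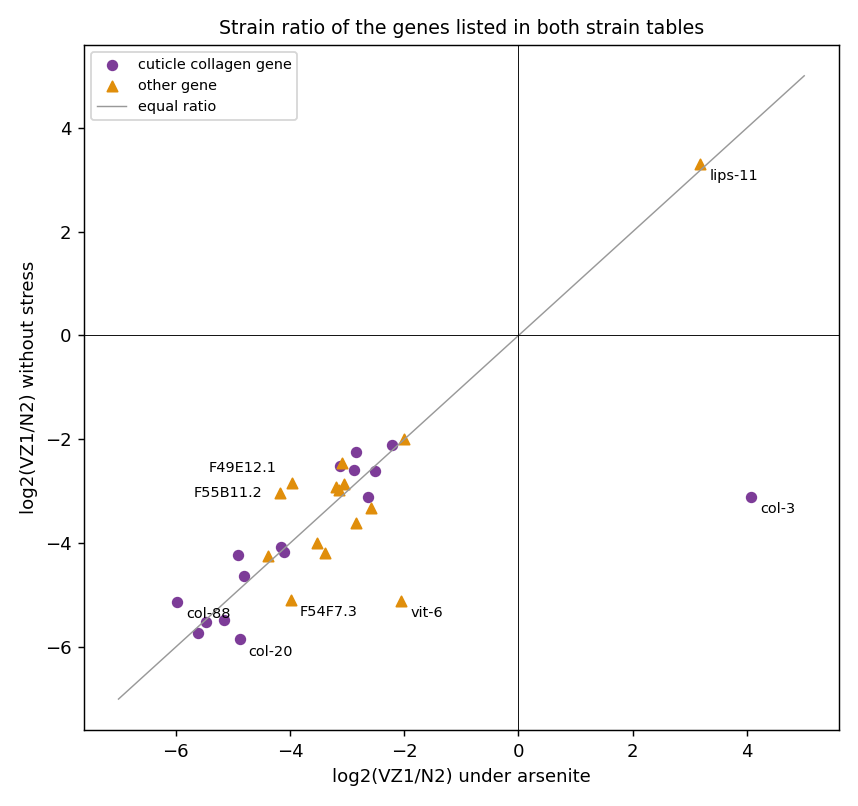
log2 ratio of VZ1 to N2 under arsenite (x axis) against that without stress (y axis) for the 31 entries listed in both strain tables, with circles for collagen genes, triangles for other genes and a line of equal ratio. A call in both tables selects for large ratios in each, and most points lie near the line. The gene col-3 lies at 4.07 on the x axis and −3.10 on the y axis, and vit-6 at −2.05 and −5.11.

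Within strains, the low collagen genes that could be followed stood still lower with arsenite. The 9 not listed between the unstressed strains have no level without stress. Leaving out col-3, all 15 that could be followed had less FPKM with than without arsenite in VZ1, by log2 values between −2.25 and −0.36, and all 15 did in N2, by values between −3.04 and −0.54. The medians were −1.14 in VZ1 and −0.90 in N2. The gene col-88 had 3.95 FPKM with and 18.8 FPKM without arsenite in VZ1, and 248 FPKM with and 659.96 FPKM without in N2. Of the 15 other entries 9 had less FPKM with arsenite in VZ1 and 14 in N2, with median log2 values of −0.18 and −0.37. These changes are across separately scaled tables and have no test. For 4 of the 31 entries the authors' stress table for N2 lists the gene as well, and for none their stress table for VZ1. Of the 15 collagen genes only col-20 and col-178 are among these 4. The level of stressed N2 in the strain table was between 1.01 and 1.03 times that in the stress table at the 5 entries, the ZK809.5 locus included, that both hold.

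**Figure D4:**
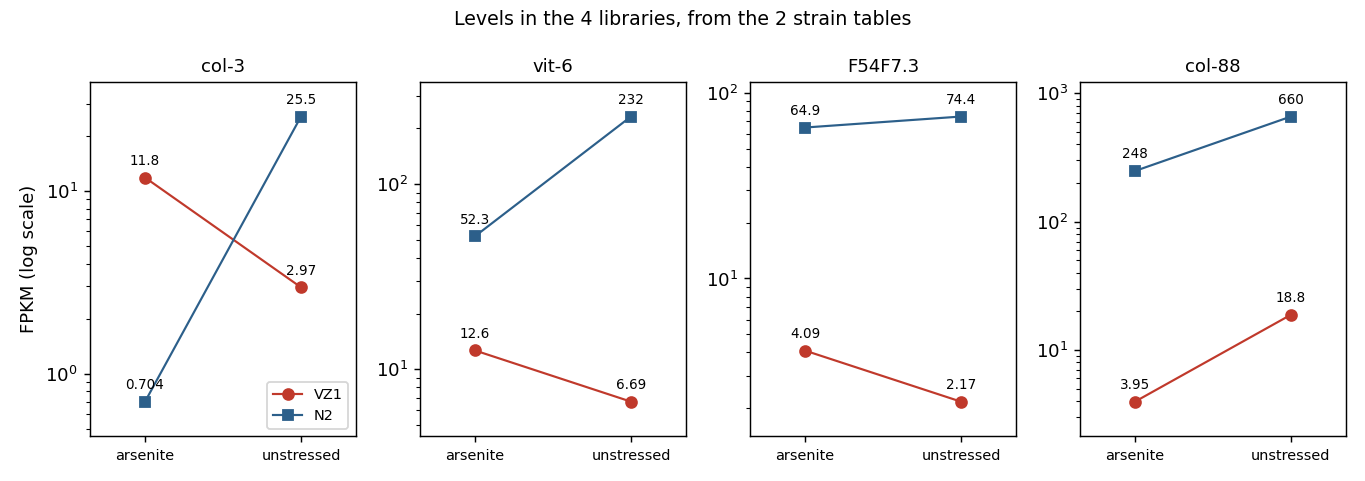
FPKM on a log scale (y axis) of 4 genes with and without arsenite (x axis), with circles for VZ1, squares for N2 and 1 library per point. The strain lines cross for col-3, draw closer with arsenite for vit-6 and F54F7.3, and both run lower with arsenite for col-88.

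Of 28 lists of genes by tissue or function 19 had no member between the stressed strains. These included the lists of SKN-1 phase 2 targets (20 genes), glutathione S-transferases (49), UDP-glucuronosyltransferases (67), cytochrome P450 enzymes (80), redox enzymes (35), small heat shock proteins (16), HSP70 and HSP90 chaperones (41) and metal and arsenite response genes (42). The SKN-1 targets gst-4 and gcs-1 were not listed, and trx-1 and skn-1 appear in none of the 4 tables, so the strain label could not be checked against the deleted gene. At the listed share of 0.508% the longest of these stress lists comes to 0.407 genes, so an empty list is not a result about it. Of muscle genes (28), neuropeptide genes (157), histone genes (72) and nuclear receptor genes (284) none was listed either, where that share comes to at most 1.44 genes. The longest empty list, of F-box and ubiquitin genes (545), comes to 2.77 genes, and that of microRNAs (258) to 1.31. The intestinal genes ges-1 and elt-2, the muscle genes unc-54 and myo-3 and the neuronal gene unc-119 are in none of the 4 tables. The parts of the worm can therefore be described only through the genes listed, and a gene that is not listed is not shown to be equal in the strains.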

How the data were processed

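RNA-seq of whole worms was deposited as 4 tables, 1 per pair of libraries. Per the file headers they have the layout of Cuffdiff and hold an FPKM value for each library, with a p-value and q-value of the authors' own test. TopHat, Bowtie2, Cufflinks and build ce10 are named per the submitters' processing notes. Strandedness, annotation and tool versions: not given in the sources used here. Every row is marked significant, with q up to 0.0492. How many genes the authors tested was obtained as q times rank over p, and was the same at each of 5 p-values. This step was tested on simulated data.

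Ratios were taken as log2(VZ1/N2) from FPKM with no pseudocount (Python 3.11.15, pandas 2.3.3). Entries were joined across tables by gene name, and all 78 names matched RefSeq (WBcel235), which gave current names. Locus starts count from 0 in the tables (the width then equals the annotated gene's length at 15 entries of the 4 tables, and with a count from 1 at 0 entries) and are printed from 1. Gene structures came from Ensembl release 115. Members, lists and the rule for the genes named were chosen with earlier results of these data known. That rule takes every higher entry and every entry at 0, up to 12 collagen genes, up to 5 members of each other list, the 10 largest ratios outside lists, the 10 highest levels not listed without stress, genes also in a stress table and those of opposite direction. Other genes were named after their values were seen. No test was made, since each group has 1 library. Promoter and protein sequences were not used here.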

Additional observations from a re-analysis of the deposited data

Results flagged for a closer look

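Some genes had opposite directions in the 2 conditions or strains, judged from 1 library each. None of these differences was tested. The gene col-3 had a log2 ratio of VZ1 to N2 of 4.07 under arsenite and −3.10 without stress, and its log2 change with arsenite was 1.99 in VZ1 and −5.18 in N2. The gene vit-6 changed with arsenite by 0.92 in VZ1 and −2.15 in N2 on the log2 scale. F54F7.3 changed by 0.91 in VZ1 and −0.20 in N2, and C02E7.7 by 0.39 in VZ1 and −0.37 in N2.

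In 4 further genes, as for F54F7.3 in N2, at least 1 of the 2 changes was small. Y45F10C.4 changed by 0.35 in VZ1 and −0.12 in N2, and R03G8.6 by 0.22 in VZ1 and −0.58 in N2. T10E9.3 changed by 0.26 in VZ1 and −0.49 in N2, at loci of unlike extent. C08F11.11 changed by −0.16 in VZ1 and 0.03 in N2. Apart from col-3, all of these remained lower in VZ1 than in N2 with and without arsenite. The values come from strain tables that were scaled separately.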

How the results depend on the processing

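The count of lower entries was 70 and ranged between 60 and 70 over the alternatives, and that of higher entries between 2 and 3. Lower collagen genes numbered 20 when loci wider than 2 times the gene were left out and 25 with rol-1 counted, both chosen after seeing the data, and 23 or 24 otherwise. Entries not listed without stress numbered 40 and ranged between 32, with q below 0.025, and 40. The median log2 ratio of the lower entries, −2.85, was −2.52 with a pseudocount of 1 FPKM, which gives the 7 genes at 0 a ratio. It was −2.75 with at least 1 FPKM in both libraries, −2.87 with q below 0.025, −2.87 for single named loci, −2.85 with each gene once and −2.86 without wide loci. At 4-fold or more, the lists of molting enzymes, C-type lectins and chemoreceptors each had 0 lower members in place of 1, since those genes are at 0 in VZ1 and have no fold. By current names the oocyte list had 1 lower member in place of 0. None of the alternatives could change a direction. They drop or regroup entries, or add the same pseudocount to both libraries, so the directions were not tested by them. The planned search for promoter motifs was not run. No paired analysis was possible because each group has 1 library. Depth is unknown, so it could not be said which low values rest on few reads.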
